A study of Homo sapiens with 36 samples.

Results

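This account describes the untreated state of H1975, an EGFR-mutant lung adenocarcinoma cell line, as it appeared in its 3 vehicle libraries, out of 36 libraries in the series. The 3 were set against the 9 vehicle libraries of the other lines, 3 each of H3255, H820 and A549, all labelled as non-small cell lung cancer. Per the labels, H1975 carries EGFR L858R together with T790M, and H3255 has L858R alone. T790M occurs in H820 on top of a deletion in exon 19, and the EGFR of A549 is wild type. Vehicle was phosphate-buffered saline with magnesium, the buffer in which the study's aptamers were folded, and it was left on the cells for 24 h in medium with 1% serum. The series also treated each line with MinE07, an RNA aptamer against EGFR, and with C36, a control aptamer. A gene was called specific to H1975 only where it differed in the same direction from each of the 3 other lines.

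EGFR is a receptor tyrosine kinase that binds EGF-family ligands and signals through the MAP kinase and PI3 kinase pathways. L858R and exon 19 deletions activate it without ligand, and T790M lowers the effect of early EGFR inhibitors. Lung adenocarcinomas often keep features of the alveolar epithelium under the factors NKX2-1 and FOXA1, and lines can lose those features or gain mesenchymal ones in culture. Each line is 1 tumour's descendant, so its EGFR allele and the rest of its background cannot be told apart, and A549 alone was grown in DMEM where the others were grown in RPMI. In bulk RNA, fewer cells and less RNA per cell cannot be told apart either.

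Expression was given as FPKM, in which the fragments of a gene are divided by transcript length and by the depth of the library. The 3 H1975 libraries had 14007 to 14039 genes at 1 FPKM or more, against 13236 to 13739 in the 9 others, and depth ran over a 2.34-fold range across the 12 vehicle libraries. Pearson correlations across genes were 0.983 to 0.986 among the H1975 libraries, 0.84 to 0.847 with H820, 0.79 to 0.801 with A549 and 0.774 to 0.789 with H3255. All 6 epithelial markers (EPCAM, CDH1, KRT7, KRT8, KRT18 and KRT19) were at 1 FPKM or more in H1975. Of 9 markers of the alveolar type 2 cell, the surfactant-making cell of the lung, 2 reached 1 FPKM in H1975 (NKX2-1 and ABCA3). The number was 8 in H3255, 4 in H820 and 2 in A549. The 9 markers summed to 25.2 to 27.1 FPKM in H1975, 371 to 388.0 in H3255, 42.9 to 45.6 in H820 and 11.8 to 16.5 in A549. The 4 leukocyte markers summed to 1.99 to 2.38 FPKM in H1975, 0.083 to 0.125 in H3255, 1.397 to 1.66 in H820 and 1.61 to 1.84 in A549. The 4 endothelial markers summed to 0.795 to 0.834 FPKM in H1975 and to 0.011 to 0.401 in the 9 others, and both sums were thus highest in H1975. The 4 fibroblast markers summed to 5.804 to 6.301 FPKM in H1975, 2.57 to 2.63 in H3255, 36.3 to 39.2 in H820 and 0.388 to 1.12 in A549. Of the 3 tested genes among leukocyte, endothelial and stromal markers, COL1A1 was higher in H1975 than in each line, as were 22% of all genes tested. The part of other cells in any result was not tested.

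Of 16765 genes tested, 3692 were higher in H1975 than in each other line (22%) and 1357 were lower (8.09%), by limma at a Benjamini-Hochberg adjusted p under 0.05 in all 3 comparisons. Single comparisons called 83% of genes against H3255, 80.8% against H820 and 81.9% against A549. The 3 H1975 libraries all lay above the 9 others for 22.7% of genes and all below them for 8.68% (31.4% in all). A fold of at least 2 against each line left 756 genes higher (4.51%) and 166 lower (0.99%). Counted by the same rule in either direction, 30.1% of genes were specific to H1975, 33% to H820, 39.4% to A549 and 43.5% to H3255. Among the genes at least 2-fold higher, 524 were protein-coding, 129 long non-coding and 45 pseudogenes, and 112 stood under 0.1 FPKM in each other line. Among those at least 2-fold lower, 149 were protein-coding, and 49 stood under 0.1 FPKM in H1975 itself. The excess of higher calls depended on scaling. Under the authors' scaling 73.1% of specific genes were higher, against 54.5% after rescaling by medians of ratios, where the counts were 2599 higher and 2168 lower. The median log2 difference over all genes was 0.138 against H3255, 0.133 against H820 and 0.186 against A549 before rescaling, so small differences are read relative to that shift. A correction for GC content and gene length, added after the data had been seen, could be run on 14164 genes. It gave 2290 higher and 2280 lower, where the same genes uncorrected gave 3173 and 1214.

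The genes set farthest apart were the CT45A copies, DHRS2, HSPB6, CALB2 and TNFRSF6B on the higher side and BEX3, S100P, HOXB7, ECH1, INHBB and FOXA1 on the lower side. CT45A genes encode cancer-testis antigens of chromosome X, proteins normally made in male germ cells and reactivated in some tumours, often along with loss of DNA methylation at CG dinucleotides. The promoters of 2 copies that lie on opposite strands, of DHRS2 and of FOXA1 are shown because the CT45A copies and DHRS2 were far higher, and the lineage factor FOXA1 far lower, in H1975 than in each other line. Each runs from 250 bases before to 50 after the start of the gene, from RefSeq on build GRCh38.p14, read 5′ to 3′ on the gene's strand, with CG in capitals.
CT45A1, chrX:135713389-135713688, plus strand: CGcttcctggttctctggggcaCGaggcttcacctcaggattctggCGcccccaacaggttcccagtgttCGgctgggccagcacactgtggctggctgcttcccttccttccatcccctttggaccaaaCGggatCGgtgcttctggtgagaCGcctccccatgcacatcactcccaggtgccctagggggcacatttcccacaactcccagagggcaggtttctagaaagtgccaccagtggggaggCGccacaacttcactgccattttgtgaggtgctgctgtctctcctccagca
CT45A7, chrX:135837030-135837329, minus strand: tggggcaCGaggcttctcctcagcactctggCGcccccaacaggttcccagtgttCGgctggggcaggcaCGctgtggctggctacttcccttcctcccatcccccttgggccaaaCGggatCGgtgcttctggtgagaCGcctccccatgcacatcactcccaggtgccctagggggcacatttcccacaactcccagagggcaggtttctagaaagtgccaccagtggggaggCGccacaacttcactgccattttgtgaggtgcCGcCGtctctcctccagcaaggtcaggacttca
DHRS2, chr14:23629865-23630164, plus strand: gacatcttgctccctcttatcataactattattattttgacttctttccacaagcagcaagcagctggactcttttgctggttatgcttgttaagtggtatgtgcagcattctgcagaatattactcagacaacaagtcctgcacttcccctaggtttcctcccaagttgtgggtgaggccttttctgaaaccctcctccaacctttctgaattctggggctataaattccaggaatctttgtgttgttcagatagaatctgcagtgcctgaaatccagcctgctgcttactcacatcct
FOXA1, chr14:37595200-37595499, minus strand: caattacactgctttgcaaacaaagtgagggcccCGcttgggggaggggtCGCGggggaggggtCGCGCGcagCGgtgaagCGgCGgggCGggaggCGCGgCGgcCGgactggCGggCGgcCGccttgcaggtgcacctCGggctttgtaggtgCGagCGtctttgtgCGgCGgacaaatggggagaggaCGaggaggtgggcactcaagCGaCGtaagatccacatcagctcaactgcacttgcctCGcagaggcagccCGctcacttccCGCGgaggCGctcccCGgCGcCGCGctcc

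The CT45A1 and CT45A7 windows were 86.3% identical when aligned over their whole length with gaps allowed. The shared sequence begins later in the CT45A1 window than in the CT45A7 window. Unmatched ends thus count as differences, and the figure understates the identity of the shared part. The CT45A1 and CT45A7 windows held 8 and 10 CG, fewer than the median of 14 over 35116 RefSeq promoters of this length. At least as many CG were held by 60.7% and 56.4% of promoters, respectively. The DHRS2 window held 0 CG and the motif TATAAA, which 11.5% of promoters held on either strand. The FOXA1 window held 34 CG, a number that 15.6% of promoters reached. These are descriptions of the reference sequence, since no methylation was measured.

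CT45A1 stood at 34.5, 37.8 and 33.5 FPKM in H1975, 0, 0 and 0 in H3255, 0, 0 and 0.0295 in H820 and 0.0791, 0.246 and 0.137 in A549. The H1975 libraries lay far above all 9 others, in which the gene was at or near 0, with log2 differences of 6.16 ± 0.082 against H3255, 6.13 ± 0.082 against H820 and 5.78 ± 0.082 against A549 (limma, largest adjusted p = 9.06e-15). All log2 differences are on the log2(FPKM + 0.5) scale, which understates differences for genes near 0. All 9 CT45 genes that passed the filter were called higher, and 8 were among the top 12, with H1975 means from 13.8 FPKM for CT45A2 to 35.2 for CT45A1. In H3255 all 8 were listed at 0 in every vehicle library. The copies share much of their sequence. Between 63.4% and 100% of the 100-base stretches of each CT45 transcript also occurred in another CT45 transcript, so the family's level is firmer than the division among its copies.

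DHRS2, a mitochondrial short-chain dehydrogenase known to respond to histone deacetylase inhibitors, was the most abundant of the top genes. It stood at 281, 277 and 266 FPKM in H1975, 0.316, 0.2797 and 0.386 in H3255, 0.201, 0.166 and 0.159 in H820 and 4.69, 4.63 and 4.52 in A549. Its libraries did not overlap those of any line, with log2 differences of 8.38 ± 0.051 against H3255, 8.67 ± 0.051 against H820 and 5.75 ± 0.051 against A549 (limma, largest adjusted p = 1.43e-16). HSPB6, a small heat shock protein best known from muscle, was at 28.5, 26.9 and 29.8 FPKM in H1975, 0, 0.023 and 0 in H3255, 0.0324, 0.0293 and 0.0556 in H820 and 0.104, 0.267 and 0.127 in A549. The gene was thus at its highest in the 3 H1975 libraries and at 0.267 FPKM or less in the 9 others (log2 differences 5.83, 5.74 and 5.45 against H3255, H820 and A549, largest limma adjusted p = 1.20e-14). CALB2, the calcium-binding protein calretinin, was at 19.2, 16.8 and 17.5 FPKM in H1975, 0.0075, 0 and 0 in H3255, 0.044, 0.0555 and 0.106 in H820 and 0.158, 0.161 and 0.186 in A549. A numbered copy of this name in the files had similar values, so the 2 entries are not independent. TNFRSF6B encodes decoy receptor 3, a secreted receptor that captures FAS ligand. Its values were 31.8, 29.4 and 30.9 FPKM in H1975, 0.595, 0.993 and 1.03 in H3255, 0.415, 0.4303 and 0.371 in H820 and 0.652, 0.494 and 0.875 in A549, with log2 differences of 4.52, 5.11 and 4.74 (limma, largest adjusted p = 9.28e-12). The 9 other libraries stayed at about 1 FPKM or less. TNFRSF6B overlaps read-through transcripts of RTEL1, and reads in the shared part can be divided between them.

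BEX3, an adaptor of the neurotrophin receptor and a member of a small gene family on chromosome X, was at 0.129, 0 and 0 FPKM in H1975, 67.9, 73.1 and 72.4 in H3255, 119, 125 and 122.8 in H820 and 124, 107 and 114 in A549. It was abundant in 9 libraries and listed at 0 in 2 of the 3 H1975 libraries (log2 differences -7.05, -7.83 and -7.74, largest limma adjusted p = 2.81e-15). S100P, a calcium-binding protein secreted by many adenocarcinomas, was at 0.719, 0.553 and 0.867 FPKM in H1975, 268, 279.7 and 291 in H3255, 37.3, 37.1 and 39.3 in H820 and 66.1, 56.8 and 58.2 in A549. The H1975 libraries lay under 1 FPKM and did not overlap the others, with log2 differences of -7.86, -4.99 and -5.65 (limma, largest adjusted p = 9.07e-14). ECH1, a peroxisomal and mitochondrial enzyme of fatty acid oxidation, was at 0.767, 0.602 and 0.676 FPKM in H1975, 27.3, 22.7 and 21.9 in H3255, 60.1, 52.5 and 66.6 in H820 and 44.7, 42.8 and 45.98 in A549. No libraries overlapped (log2 differences -4.37, -5.67 and -5.25), and a numbered copy of this name had similar values. INHBB, the beta B subunit of activin and inhibin, was at 0.574, 0.524 and 0.604 FPKM in H1975, 20, 20.2 and 20.8 in H3255, 14.5, 15.5 and 15.3 in H820 and 21.4, 22.1 and 22.2 in A549. The H1975 libraries lay far below the 9 others, among which H820 was lowest (log2 differences -4.29, -3.87 and -4.39).

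FOXA1, a pioneer factor that opens chromatin in lung and other endodermal epithelia, was at 0.374, 0.301 and 0.259 FPKM in H1975, 41.6, 44.3 and 42.2 in H3255, 24.6, 25.1 and 27.3 in H820 and 9.12, 8.39 and 8.66 in A549. The log2 differences were -5.74 ± 0.058 against H3255, -5.01 ± 0.058 against H820 and -3.51 ± 0.058 against A549 (limma, largest adjusted p = 2.29e-14), and no library overlapped. LAMB1, a laminin chain of the basement membrane, was at 1.83, 1.86 and 1.77 FPKM in H1975, 39.4, 39.96 and 41.04 in H3255, 23.8, 26.1 and 24.6 in H820 and 32.2, 35.96 and 37.3 in A549, with differences of -4.13, -3.45 and -3.94. EGFL7, a secreted factor known from endothelium, had means of 0.572 ± 0.239 FPKM in H1975, 24.7 ± 0.972 in H3255, 10.9 ± 0.252 in H820 and 13.4 ± 1.18 in A549 (SD, n = 3 per line here and below). NRCAM, a neuronal cell adhesion molecule, had means of 0.00755 ± 0.004299 FPKM in H1975, 10.9 ± 0.375 in H3255, 3.39 ± 0.1705 in H820 and 22.4 ± 0.568 in A549. NRCAM was near 0 in every H1975 library. STK26, a kinase of the GCKIII group that acts on the cytoskeleton and Golgi, was listed at 0 in 2 H1975 libraries and stood at 0.0054 FPKM in the other, against 8.904, 9.19 and 9.63 in H3255, 15, 15 and 14.3 in H820 and 5.27, 4.17 and 4.81 in A549. CXCL16, a chemokine made also as a membrane-bound adhesion molecule, had means of 0.4996 ± 0.05796 FPKM in H1975, 31.2 ± 0.582 in H3255, 7.13 ± 0.212 in H820 and 11.1 ± 0.753 in A549.

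**Figure D1:**
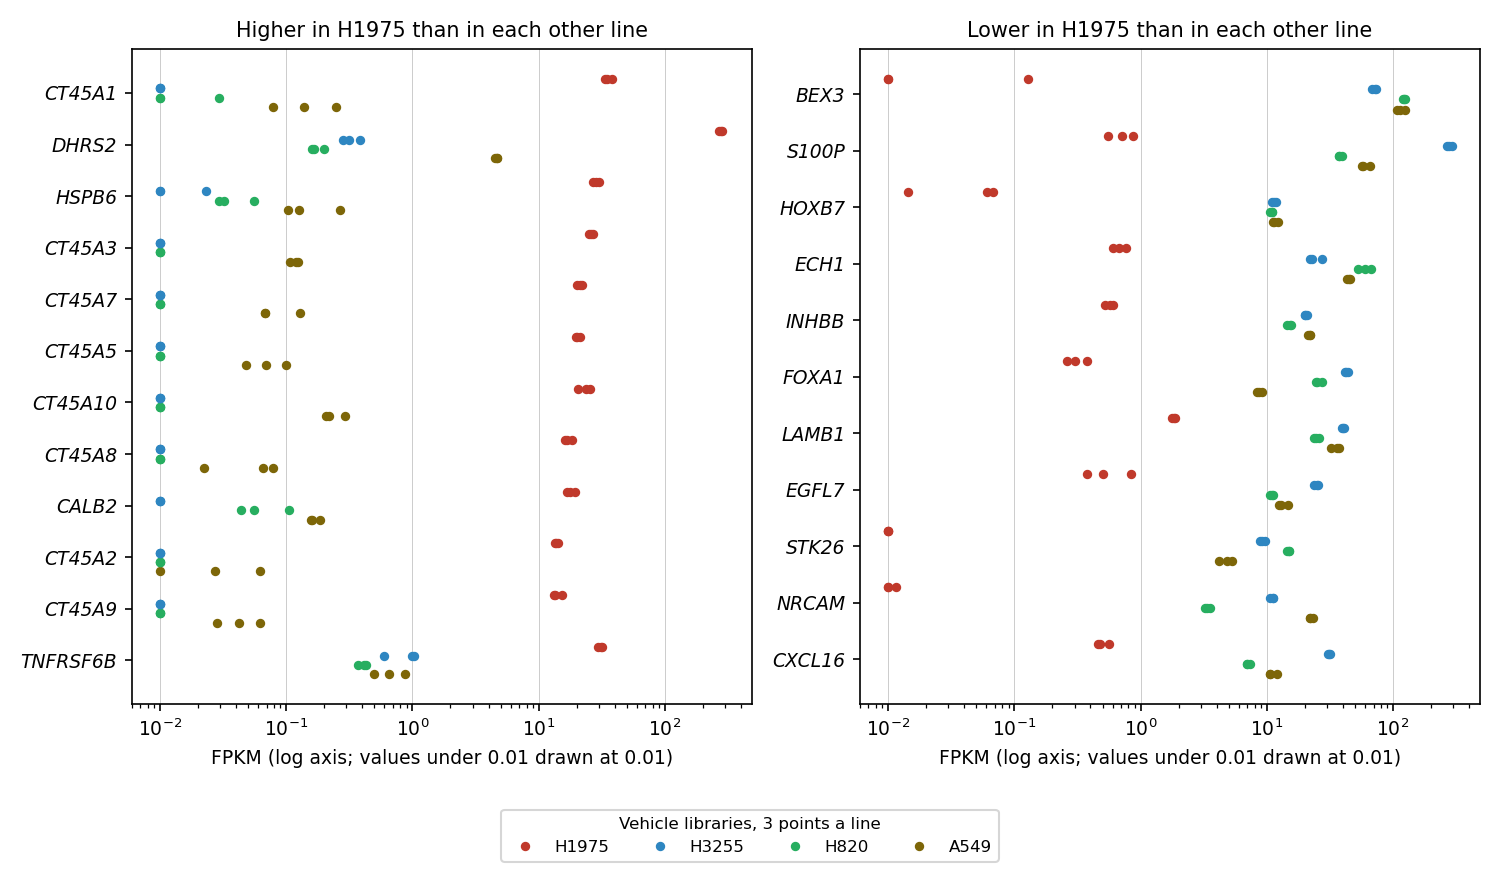
FPKM in each vehicle library (log axis, values under 0.01 drawn at 0.01) for 12 genes set farthest above (left) and 11 set farthest below (right) the 3 other lines, 3 points per line. The H1975 points of each gene stand clear of the 9 others, as for CT45A1 (33.5 to 37.8 FPKM against at most 0.246) and S100P (at most 0.867 against at least 37.1).

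Among the ERBB receptors, H1975 took an intermediate place. EGFR stood at 24.6, 27.8 and 25.9 FPKM in H1975, 415, 421 and 420.2 in H3255, 7.39, 7.56 and 7.67 in H820 and 19.4, 20.3 and 19.9 in A549. H1975 was below H3255 (-3.98 ± 0.041), above H820 (1.73 ± 0.041) and slightly above A549 (0.38 ± 0.041), with no overlap between neighbouring lines (limma, largest adjusted p = 1.94e-06). ERBB2, the partner receptor with no known ligand, had means of 18.9 ± 0.894 FPKM in H1975, 73.9 ± 1.17 in H3255, 8.65 ± 0.356 in H820 and 9.02 ± 0.373 in A549. ERBB3, which signals by pairing with other ERBB receptors, had means of 8.56 ± 0.0134 FPKM in H1975, 28.8 ± 0.521 in H3255, 2.62 ± 0.384 in H820 and 6.66 ± 0.203 in A549. Both followed the same order, H3255 highest and H1975 next. Of the 15 tested members of the ERBB list (16 listed), 1 was higher in H1975 than in each line and 2 were lower, against 22% and 8.09% of all genes tested. The higher one was the ligand TGFA, at 11.96, 12.9 and 12.7 FPKM in H1975, 4.06, 4.099 and 4.11 in H3255, 0.929, 0.856 and 0.787 in H820 and 0.996, 0.975 and 1.096 in A549. Its H1975 libraries did not overlap the others (log2 differences 1.51, 3.26 and 3.10, largest limma adjusted p = 2.36e-11). The lower ones were BTC, the ligand betacellulin, at 1.102 ± 0.03598 FPKM in H1975, 9.23 ± 0.379 in H3255, 6.001 ± 0.397 in H820 and 2.002 ± 0.161 in A549, and ERRFI1, a feedback inhibitor of EGFR. ERRFI1 was at 65.9 ± 3.24 FPKM in H1975, 85.2 ± 3.56 in H3255, 94.6 ± 0.7098 in H820 and 90.3 ± 2.77 in A549. The list's median log2 difference was -0.368 against H3255, -0.0657 against H820 and 0.00165 against A549.

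MET, the HGF receptor whose gain is a known bypass of EGFR inhibition, stood at 52.5, 55.5 and 52.4 FPKM in H1975, 43.2, 44.3 and 44.1 in H3255, 125, 120.5 and 121 in H820 and 52.2, 51.2 and 50.6 in A549. H1975 was above H3255 (0.28) and below H820 (-1.18). Against A549 the difference was 0.06 ± 0.033 (limma, adjusted p = 0.12), and it turned to -0.16 after rescaling and to -0.092 after the GC and length correction, so its sign is not settled. Among 19 tested receptor tyrosine kinases outside the ERBB family (27 listed), 2 were specifically higher and 1 lower, against 22% and 8.09% of all genes. MST1R, the MET-related receptor RON, was at 8.81 ± 0.976 FPKM in H1975, 3.204 ± 0.308 in H3255, 0.8303 ± 0.0182 in H820 and 3.37 ± 0.175 in A549 (log2 differences 1.33, 2.80 and 1.26). INSR, the insulin receptor, was at 2.84 ± 0.2404 FPKM in H1975, 1.801 ± 0.163 in H3255, 1.37 ± 0.0321 in H820 and 1.02 ± 0.101 in A549. The collagen receptor DDR1 was lower at 2.03 ± 0.05305 FPKM in H1975, 10.04 ± 0.253 in H3255, 3.24 ± 0.0551 in H820 and 4.098 ± 0.0392 in A549.

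The lung lineage factor in H1975 lay between H3255, in which 8 of 9 alveolar type 2 markers reached 1 FPKM, and A549, in which it was near 0. NKX2-1 was at 20.7, 18.7 and 20.2 FPKM in H1975, 71.1, 73.7 and 75.4 in H3255, 34.2, 36.1 and 35.6 in H820 and 0.0331, 0 and 0.0313 in A549. No libraries of different lines overlapped, and the H1975 level was lower than in H3255 (-1.86) and H820 (-0.82) and higher than in A549 (5.29, largest limma adjusted p = 3.60e-09). In the alveolar and airway list, 19 of 26 genes were tested, 2 were specifically higher and 3 lower, against 22% and 8.09% of all genes. Of the lower ones 2 were so by at least 2-fold. The list's median log2 difference was -2.89 against H3255, -0.107 against H820 and 0.0639 against A549. Beside FOXA1, described above, the lower genes were LAMP3 and CEBPA. LAMP3, a lamellar body protein, was at 0.777 ± 0.166 FPKM in H1975, 3.05 ± 0.0668 in H3255, 3.12 ± 0.256 in H820 and 10.8 ± 2.897 in A549. CEBPA, a factor of alveolar maturation, was at 0.659 ± 0.116 FPKM in H1975, 11.6 ± 0.559 in H3255, 1.07 ± 0.135 in H820 and 2.75 ± 0.287 in A549. The higher ones were CAV1 and ABCA3. CAV1, the caveola protein abundant in alveolar type 1 cells, was at 343 ± 1.89 FPKM in H1975, 1.698 ± 0.0606 in H3255, 186 ± 9.91 in H820 and 122 ± 9.41 in A549. ABCA3, the surfactant lipid transporter, was at 5.06 ± 0.134 FPKM in H1975, 2.71 ± 0.109 in H3255, 2.81 ± 0.0866 in H820 and 2.69 ± 0.366 in A549. After the GC and length correction 8 members of this list were lower and 2 higher, beside 2280 and 2290 of 14164 genes over all.

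Markers of other epithelial fates were also examined. The calls in these short lists stand beside 22% higher and 8.09% lower over all genes tested. Of 22 gut and liver genes 11 were tested. SERPINA1, the alpha-1 antitrypsin made in liver, was called higher at 7.53 ± 0.212 FPKM in H1975, 0 ± 0 in H3255, 6.06 ± 0.193 in H820 and 0.486 ± 0.0785 in A549, a call lost after rescaling and after the GC and length correction. Of 14 squamous and basal genes 5 were tested and only KRT17 was called, higher at 1.15 ± 0.191 FPKM in H1975, 0.414 ± 0.0843 in H3255, 0.0897 ± 0.0107 in H820 and 0.639 ± 0.0764 in A549. The basal marker S100A2 was at 10.2 ± 1.05 FPKM in H1975, 24.3 ± 0.372 in H3255, 7.67 ± 0.0822 in H820 and 0.671 ± 0.0808 in A549, and the basal keratin KRT15 at 4.702 ± 0.185 FPKM in H1975, 9.24 ± 0.463 in H3255, 2.05 ± 0.244 in H820 and 0.347 ± 0.0404 in A549. Both, chosen after their values were seen, were below H3255 and above the 2 other lines. Of 13 neuroendocrine genes 5 were tested. SCG2, a granin of secretory granules, was higher at 4.63, 5.698 and 5.28 FPKM in H1975, 0.047, 0.0262 and 0.0078 in H3255, 0.0832, 0.0917 and 0.0713 in H820 and 0.284, 0.228 and 0.229 in A549. Its H1975 libraries lay above all others (log2 differences 3.43, 3.29 and 2.93, largest limma adjusted p = 4.30e-13). ENO2, the neuronal enolase, was higher at 16.6 ± 0.321 FPKM in H1975, 9.93 ± 1.08 in H3255, 2.58 ± 0.184 in H820 and 11.8 ± 0.271 in A549. CHGB, another granin, was listed at 0 in all 3 H1975 libraries against 0.0933 ± 0.0517 FPKM in H820, the nearest line. The CHGB call was lost at a pseudocount of 1 and without H820 vehicle replicate 2.

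All 28 epithelial junction and keratin genes were tested, 2 higher and 4 lower, against 22% and 8.09% of all genes, with list medians of -0.954 against H3255, 0.741 against H820 and 1.81 against A549. CDH1, E-cadherin, stood at 33.8, 34.7 and 36.6 FPKM in H1975, 126, 128 and 127 in H3255, 21.1, 22.2 and 22.3 in H820 and 32.6, 34 and 33.8 in A549. H1975 overlapped A549 (log2 difference 0.06 ± 0.038, limma adjusted p = 0.137), a difference that turned to -0.15 after rescaling and -0.19 after the GC and length correction. Of the tight junction genes, claudin-1 (CLDN1) was lower at 0.6202 ± 0.0278 FPKM in H1975, 29.2 ± 1.48 in H3255, 1.47 ± 0.198 in H820 and 44.3 ± 3.097 in A549. Occludin (OCLN) was lower at 0.572 ± 0.00782 FPKM in H1975, 3.89 ± 0.0948 in H3255, 2.05 ± 0.145 in H820 and 0.766 ± 0.0593 in A549, and the scaffold TJP3 at 2.41 ± 0.136 FPKM in H1975, 4.65 ± 0.397 in H3255, 4.39 ± 0.473 in H820 and 4.82 ± 0.234 in A549. The keratin KRT8 was also lower, at 585 ± 50.8 FPKM in H1975, 779 ± 12.2 in H3255, 728 ± 13.4 in H820 and 2978 ± 55.9 in A549. The higher members were the keratin KRT19 and the desmosomal plakophilin PKP3. KRT19 was at 421 ± 21.4 FPKM in H1975, 286 ± 9.48 in H3255, 167 ± 1.49 in H820 and 4.14 ± 0.04097 in A549. PKP3 was at 35.3 ± 1.83 FPKM in H1975, 27.97 ± 0.739 in H3255, 11.03 ± 0.397 in H820 and 12.5 ± 1.03 in A549, and its call was lost after rescaling. H1975 thus combined E-cadherin at the A549 level with the lowest claudin-1 and occludin of the 4 lines.

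Mesenchymal and matrix genes included many that were highest in H1975. Of 27 tested (31 listed), 12 were higher and 1 lower, against 22% and 8.09% of all genes. At least 2-fold higher were 7, against 4.51% of all genes. The same 12 and 1 calls by number were made after rescaling, with 5 at least 2-fold higher. Over all 16765 genes that setting gave 2599 higher, 2168 lower and 579 at least 2-fold higher. After the GC and length correction 12 were higher, 6 of them at least 2-fold, and 3 lower. The correction gave 2290, 413 and 2280 of 14164 genes over all. VIM, the intermediate filament vimentin, stood at 667, 664 and 639.8 FPKM in H1975, 6.15, 6.29 and 6.29 in H3255, 297, 302 and 295 in H820 and 372, 364 and 352 in A549. H1975 exceeded each line (log2 differences 6.61 ± 0.032 against H3255, 1.14 ± 0.032 against H820 and 0.86 ± 0.032 against A549, largest limma adjusted p = 5.07e-11). TAGLN, an actin-binding protein of smooth muscle and myofibroblasts, was at 19.3, 16.9 and 17.1 FPKM in H1975, 0.201, 0.166 and 0.211 in H3255, 0.9497, 0.916 and 1.04 in H820 and 0.776, 0.845 and 0.742 in A549. All 9 other libraries stayed at about 1 FPKM or less (log2 differences 4.72, 3.64 and 3.83). SNAI1, a repressor of E-cadherin, was at 15.5, 15.9 and 16.1 FPKM in H1975, 0.532, 0.561 and 0.367 in H3255, 2.81, 2.54 and 3.09 in H820 and 2.42, 2.24 and 2.47 in A549, again without overlap (log2 differences 4.06, 2.30 and 2.51). LOXL2, which crosslinks collagen, had means of 83.9 ± 0.303 FPKM in H1975, 0.866 ± 0.0916 in H3255, 22.5 ± 0.729 in H820 and 30.3 ± 1.58 in A549. Both chains of type I collagen were called higher from low levels. COL1A2 was at 6.45 ± 0.2296 FPKM in H1975, 0.00202 ± 0.00349 in H3255, 0.00779 ± 0.00362 in H820 and 0.0924 ± 0.16 in A549. COL1A1, also listed among fibroblast markers, was at 5.01 ± 0.0867 FPKM in H1975, 2.59 ± 0.0318 in H3255, 0.747 ± 0.05796 in H820 and 0.475 ± 0.301 in A549. The lower member was ACTA2, smooth muscle actin, at 0.6702 ± 0.0715 FPKM in H1975, 3.17 ± 0.155 in H3255, 1.04 ± 0.157 in H820 and 3.41 ± 0.155 in A549. The 4 fibroblast markers summed to 5.804 to 6.301 FPKM in H1975 but to 36.3 to 39.2 in H820. COL1A1 is 1 of the 4 and the only one to reach 1 FPKM in H1975, so that sum is not independent of it. In H820 the 1 marker that reached 1 FPKM was not COL1A1. The part of such cells was not tested. Against single lines the list's median was 2.78 for H3255, 0.0397 for H820 and 1.23 for A549.

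Of 17 tested genes of pericellular proteolysis (19 listed), 8 were higher, 5 of them by at least 2-fold, and 2 were lower, against 22% and 8.09% of all genes and 4.51% at least 2-fold higher. After rescaling 6 were higher, 4 of them at least 2-fold, beside 2599 and 579 of 16765 genes over all. The GC and length correction also gave 6 and 4, beside 2290 and 413 of 14164 genes. MMP14, the membrane-anchored matrix metalloprotease that activates MMP2, stood at 38.97, 37.99 and 37.9 FPKM in H1975, 1.05, 1.03 and 1.03 in H3255, 8.97, 8.69 and 9.64 in H820 and 0.596, 0.7695 and 0.594 in A549. H1975 was above every other library (log2 differences 4.66 ± 0.059 against H3255, 2.02 ± 0.059 against H820 and 5.07 ± 0.059 against A549, largest limma adjusted p = 6.96e-12). The collagenase MMP13 was at 5.997, 6.42 and 6.82 FPKM in H1975, 0.739, 0.782 and 0.739 in H3255, 0.609, 0.764 and 0.6701 in H820 and 0.0527, 0.0301 and 0.0298 in A549, with differences of 2.46, 2.55 and 3.68. SERPINB5, the epithelial serpin maspin, was at 7.83 ± 0.378 FPKM in H1975, 0.616 ± 0.101 in H3255, 0.399 ± 0.0637 in H820 and 0.0307 ± 0.0157 in A549. The collagenase MMP1 was at 1.62 ± 0.0846 FPKM in H1975, 0.297 ± 0.0382 in H3255, 0.0242 ± 0.0255 in H820 and 0.0577 ± 0.01603 in A549. MMP7, the epithelial matrilysin, was near 0 in every H1975 library and lower than in each line (0.0168 ± 0.001404 FPKM in H1975, 0.461 ± 0.0739 in H3255, 11.01 ± 0.434 in H820 and 24.6 ± 2.31 in A549). The lysosomal cathepsin CTSB was lower too, at 13.6 ± 1.03 FPKM in H1975, 18.4 ± 0.138 in H3255, 25.3 ± 1.56 in H820 and 27.9 ± 0.335 in A549.

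Of 20 genes that follow MAP kinase activity, 3 were specifically higher in H1975 and 0 lower, where 22% and 8.09% of all genes were. At an unadjusted limma p under 0.05 the counts were also 3 and 0. FOSL1, the AP-1 subunit FRA1 that is stabilised by ERK, was at 104, 103 and 106 FPKM in H1975, 2.03, 2.05 and 2.17 in H3255, 22.1, 20.4 and 19.1 in H820 and 17.5, 16.1 and 15.4 in A549. It was the clearest of the list (log2 differences 5.34 ± 0.056 against H3255, 2.32 ± 0.056 against H820 and 2.64 ± 0.056 against A549, largest limma adjusted p = 1.18e-12). IL11, a cytokine of the IL-6 family, was at 6.65, 7.41 and 7.11 FPKM in H1975, 0.145, 0.102 and 0.0955 in H3255, 1.38, 0.983 and 0.951 in H820 and 1.13, 1.26 and 1.24 in A549, and every H1975 library exceeded every other (log2 differences 3.62, 2.24 and 2.14). PHLDA1 was at 32.1 ± 0.821 FPKM in H1975, 23.6 ± 0.401 in H3255, 2.401 ± 0.103 in H820 and 17.6 ± 1.02 in A549. The list's median differed in sign between lines, -1.75 against H3255, 2.06 against H820 and 0.254 against A549.

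The CDKN2A locus was expressed in H1975. CDKN2A, which encodes the cell cycle inhibitors p16 and ARF, stood at 34.98, 32.7 and 32.9 FPKM in H1975, 0, 0 and 0 in H3255, 349, 346 and 343 in H820 and 0, 0.0217 and 0 in A549. H820 was higher and the 2 other lines were at or near 0 in every library. CDKN2B, encoding p15, followed the same order at 6.001, 6.21 and 5.98 FPKM in H1975, 0, 0 and 0 in H3255, 17.1, 15.3 and 17.3 in H820 and 0, 0.0052 and 0 in A549. The neighbouring MTAP, an enzyme of methionine salvage, was at 6.25, 6.68 and 7.15 FPKM in H1975, 0, 0 and 0 in H3255, 13.1, 12.9 and 13.1 in H820 and 2.58, 2.63 and 2.86 in A549, listed at 0 in H3255 but present in A549. In the list of CDK inhibitors, cyclins and RB proteins, 4 of 17 tested genes (18 listed) were higher and 2 lower, near the 22% and 8.09% of all genes. After rescaling 3 were higher and 4 lower, and after the GC and length correction 2 and 4. Over all genes the counts were 2599 and 2168 of 16765 after rescaling, and 2290 and 2280 of 14164 after the correction. RB1, the retinoblastoma protein that holds E2F factors in check, was lower at 4.19, 4.53 and 4.43 FPKM in H1975, 7.26, 6.95 and 6.996 in H3255, 9.83, 9.52 and 9.34 in H820 and 10.3, 8.14 and 9.27 in A549. The H1975 libraries lay below the 9 others (log2 differences -0.63, -1.04 and -0.99, largest limma adjusted p = 1.73e-06). Its relative RBL2 was higher at 11.2 ± 0.7498 FPKM in H1975, 7.88 ± 0.1799 in H3255, 4.79 ± 0.318 in H820 and 6.11 ± 0.304 in A549. CDK4 was called higher at 87.02 ± 2.21 FPKM in H1975, 70.4 ± 1.14 in H3255, 50.5 ± 2.56 in H820 and 49.5 ± 0.789 in A549, a call lost after the GC and length correction. The inhibitor CDKN2D was higher at 6.44 ± 0.0525 FPKM in H1975, 4.701 ± 0.132 in H3255, 2.08 ± 0.165 in H820 and 3.06 ± 0.104 in A549. The inhibitor CDKN1C was called higher at 3.004 ± 0.249 FPKM in H1975, 2.402 ± 0.182 in H3255, 0.194 ± 0.0367 in H820 and 0.0993 ± 0.0405 in A549. That call was lost at a pseudocount of 0.1, after rescaling and after the GC and length correction. Cyclin E1, CCNE1, was lower at 5.06 ± 0.192 FPKM in H1975, 6.26 ± 0.301 in H3255, 8.49 ± 0.152 in H820 and 9.25 ± 0.552 in A549.

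None of the 23 tested NRF2 targets (24 listed), genes of glutathione and NADPH supply, was specifically higher by limma, and 3 were lower, with the same counts at an unadjusted p under 0.05, against 22% and 8.09% of all genes. GCLC, the rate-limiting enzyme of glutathione synthesis, was at 8.197 ± 0.317 FPKM in H1975, 23.6 ± 0.397 in H3255, 16.1 ± 0.0997 in H820 and 60.5 ± 1.86 in A549. PGD of the pentose phosphate pathway was at 26.4 ± 0.377 FPKM in H1975, 44.5 ± 0.349 in H3255, 66.1 ± 0.8198 in H820 and 406 ± 15.3 in A549. The ferritin light chain FTL was at 1017 ± 55.8 FPKM in H1975, 1195 ± 31.5 in H3255, 3007 ± 30.3 in H820 and 7987 ± 487 in A549, its smallest difference being -0.23 against H3255. After rescaling 7 were lower and 0 higher, while lower calls over all genes rose from 1357 to 2168. The GC and length correction gave 0 higher and 6 lower, 2 of them at least 2-fold. Over all 14164 genes it gave 2290, 2280 and 228. The list's median was -2.64 against A549 but 0.306 against H820.

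Of 34 tested interferon and antigen presentation genes (36 listed), 3 were higher and 1 lower, against 22% and 8.09% of all genes. The list's median log2 difference changed sign between lines, 1.95 against H3255, 0.344 against H820 and -2.15 against A549. After the GC and length correction 3 were higher and 4 lower, beside 2290 and 2280 of 14164 genes over all. CD74, the invariant chain of MHC class II, stood at 32.7, 32.04 and 31.3 FPKM in H1975, 0.116, 0.0268 and 0.0637 in H3255, 3.101, 3.33 and 3.28 in H820 and 0.301, 0.3495 and 0.263 in A549. H1975 exceeded each line by a wide margin (log2 differences 5.84 ± 0.062 against H3255, 3.12 ± 0.062 against H820 and 5.34 ± 0.062 against A549, largest limma adjusted p = 2.34e-13). The leukocyte markers, of which 1 of 4 reached 1 FPKM, summed to 1.99 to 2.38 FPKM in the same H1975 libraries, and their part in the CD74 level was not tested. HLA-B, an MHC class I heavy chain with close relatives that can share its reads, was at 38.8, 29.7 and 34.9 FPKM in H1975, 1.71, 1.56 and 1.94 in H3255, 9.23, 9.11 and 10.1 in H820 and 2.52, 1.68 and 4.17 in A549. It varied more among libraries than most genes (SE 0.23) and still did not overlap (log2 differences 3.96, 1.80 and 3.47). BST2, the antiviral protein tetherin, was called higher at 78.5 ± 3.62 FPKM in H1975, 0.0832 ± 0.0743 in H3255, 51.2 ± 3.07 in H820 and 28.7 ± 4.18 in A549, a call lost at a pseudocount of 0.1. TAPBP, the tapasin of peptide loading, was lower at 3.997 ± 0.197 FPKM in H1975, 6.097 ± 0.239 in H3255, 5.88 ± 0.293 in H820 and 7.63 ± 0.559 in A549. Of 20 tested cytokines and chemokines (28 listed), IL11 and PTX3 were higher, and CXCL16, TNFSF10, CXCL1 and CXCL8 lower, against 22% and 8.09% of all genes. The median of these 20 was 0.135 against H3255, -0.0756 against H820 and -2.9 against A549. PTX3, a soluble pattern recognition protein, was at 2.79 ± 0.0629 FPKM in H1975, 0.138 ± 0.0583 in H3255, 0.917 ± 0.161 in H820 and 0.127 ± 0.02804 in A549. TNFSF10, the death ligand TRAIL, stood at 1.29, 1.04 and 1.396 FPKM in H1975, 11.9, 12.7 and 13.6 in H3255, 19.9, 21.5 and 22.9 in H820 and 8.08, 5.105 and 5.43 in A549. It was lower in all 3 H1975 libraries than in any other (log2 differences -2.93, -3.66 and -1.92, largest limma adjusted p = 2.09e-07). The neutrophil chemokine CXCL1 was at 0.2304 ± 0.0482 FPKM in H1975, 0.735 ± 0.164 in H3255, 0.533 ± 0.143 in H820 and 30.3 ± 3.29 in A549. CXCL8, of the same kind, was at 0.605 ± 0.0394 FPKM in H1975, 23.8 ± 1.803 in H3255, 0.897 ± 0.201 in H820 and 34.1 ± 4.28 in A549, and its call was lost without H820 vehicle replicate 3. TNFSF10 was thus at its lowest level of the 4 lines in H1975.

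HOX genes, which carry positional identity, were specifically lower in 10 of 28 tested members (39 listed), against 8.09% of all genes, and 1 was higher. By at least 2-fold 2 were lower, against 0.99% of all genes. The list's median was -0.0307 against H3255, -1.89 against H820 and -1.04 against A549. Lower calls numbered 11 after rescaling and 17 after the GC and length correction, with 0 higher under both. Over all genes, 2168 of 16765 were lower after rescaling and 2280 of 14164 after the correction, against 1357 of 16765 before. HOXB7 stood at 0.0608, 0.0683 and 0.0143 FPKM in H1975, 10.9, 11.8 and 11.4 in H3255, 10.5, 10.9 and 11.02 in H820 and 12.2, 11.4 and 11.3 in A549. The 9 other libraries lay at 10.5 FPKM or more and the 3 in H1975 under 0.1 FPKM (log2 differences -4.44, -4.37 and -4.47, largest limma adjusted p = 3.56e-15). HOXB3 was at 0.0373, 0.0614 and 0.0269 FPKM in H1975, 2.48, 2.45 and 2.67 in H3255, 2.61, 2.299 and 2.37 in H820 and 3.37, 3.44 and 3.202 in A549, a like pattern (log2 differences -2.49, -2.43 and -2.82). HOXB2 was at 0.01598 ± 0.0277 FPKM in H1975, 6.58 ± 0.2301 in H3255, 0.392 ± 0.0383 in H820 and 0.521 ± 0.0733 in A549. HOXB6 was at 0.0436 ± 0.0373 FPKM in H1975, 0.2298 ± 0.0852 in H3255, 3.94 ± 0.3501 in H820 and 2.39 ± 0.223 in A549. The 8 tested protein-coding genes from HOXB2 to HOXB9 on chromosome 17 were all specifically lower and formed one of the longest unbroken lower runs in the genome. The higher member, HOXC4, at 3.54 ± 0.355 FPKM in H1975, 0 ± 0 in H3255, 2.13 ± 0.249 in H820 and 2.87 ± 0.227 in A549, shares exons with other HOXC genes, and its call was lost after rescaling and after the GC and length correction. Of 32 cancer-testis antigens listed 8 were tested and 3 were higher, against 22% of all genes, namely CT45A1 and the near-identical pair XAGE1A and XAGE1B. XAGE1A was at 365 ± 15.6 FPKM in H1975, 103 ± 6.703 in H3255, 262 ± 14.9 in H820 and 24.1 ± 6.58 in A549, and XAGE1B at 366 ± 35.7 FPKM in H1975, 109.9 ± 8.16 in H3255, 275 ± 9.79 in H820 and 30.4 ± 0.735 in A549. XAGE1A lost its call in 5 settings, among them without H1975 vehicle replicate 1 or H820 vehicle replicate 3, and XAGE1B in the fit of all 36 libraries. After the GC and length correction the list held 2 higher and 4 lower genes, beside 2290 and 2280 of 14164 genes over all.

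**Figure D2:**
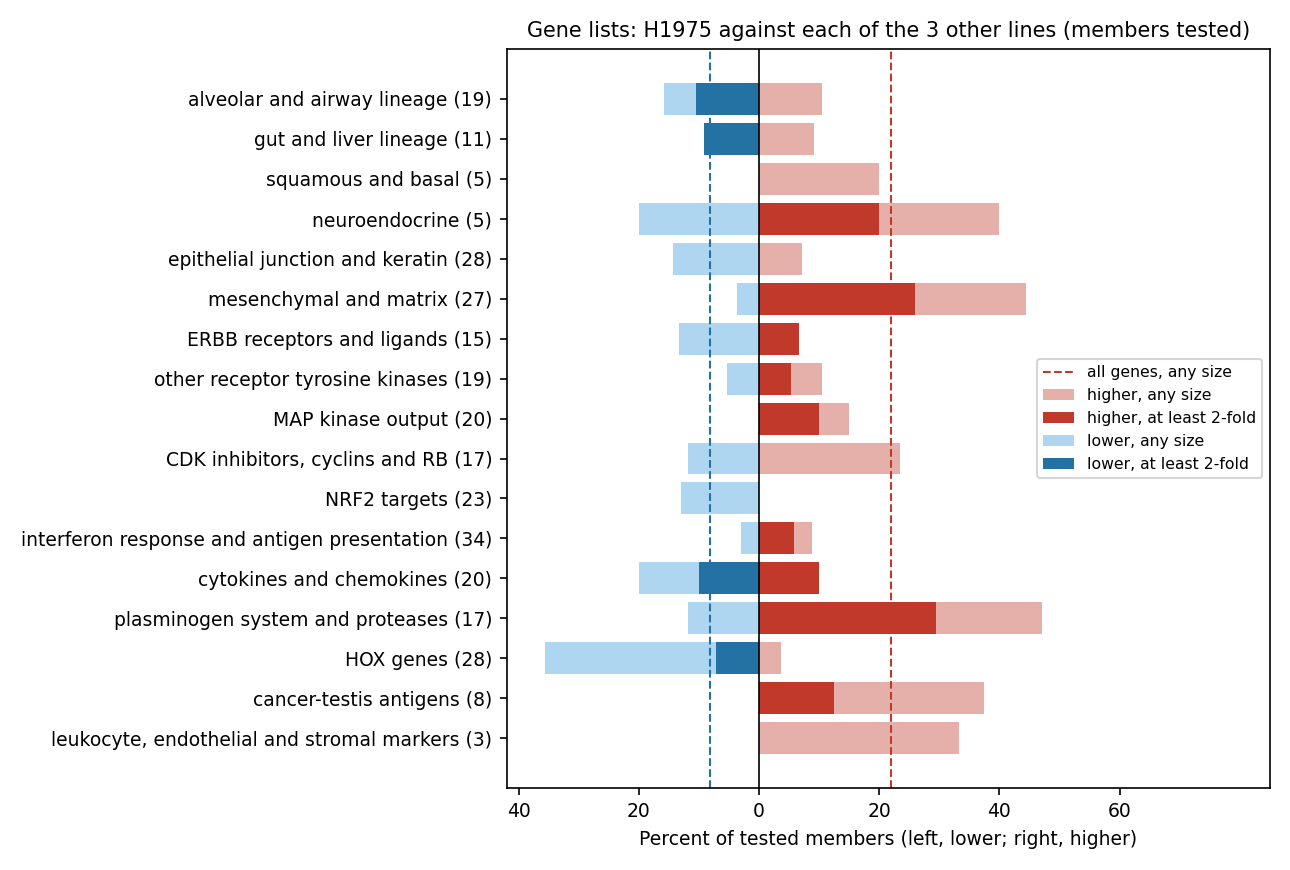
Percent of tested members (number in parentheses) of each gene list that were lower (left) or higher (right) in H1975 than in each other line, pale for any size and dark for at least 2-fold, with dashed lines at the 22% higher and 8.09% lower of all genes. Mesenchymal (12 of 27) and protease genes (8 of 17) reach farthest to the right, and HOX genes (10 of 28 lower) farthest to the left.

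Specific genes were unevenly spread over the chromosomes. The position analysis took the 12599 tested protein-coding genes with a RefSeq symbol and used their order in RefSeq on GRCh38.p14. Of these 22.9% were higher and 9.05% lower. On chromosome 19, 452 of 961 genes were higher (47.0%), and the share was 43.3% on chromosome 22, 42.0% on 16, 37.7% on 3 and 35.6% on 9. Chromosome 8 stood opposite, with 7.34% higher and 22.9% lower, and chromosome 6 had 6.45% higher. After rescaling, the chromosome 19 share was 40.2% against 16.05% over all chromosomes. After the GC and length correction it was 38.3% against 16.5%. Under the same settings the share fell to 26.7% and 25.8% on chromosome 16, over 1.5-fold, and was 34.5% and 33.97% on 22, 27.4% and 29.4% on 3 and 24.75% and 25.25% on 9. In the C36 libraries the chromosome 19 share was 47.4% and the lower share of chromosome 8 was 25.2%. Copy number was not measured.

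**Figure D3:**
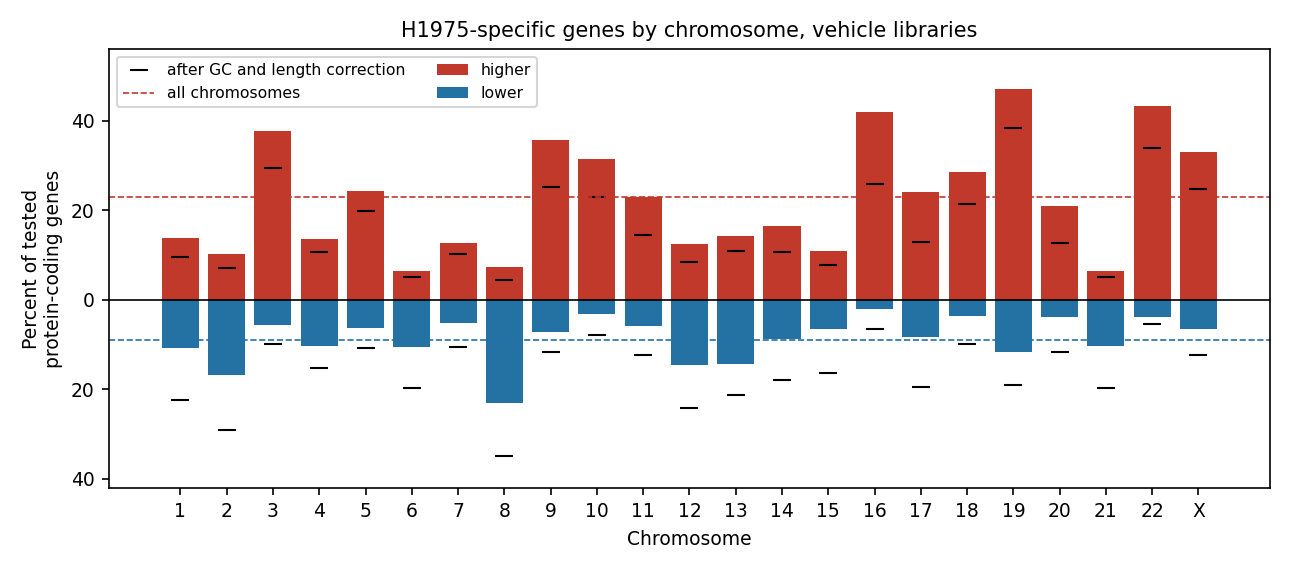
Percent of tested protein-coding genes on each chromosome that were higher (up) or lower (down) in H1975 than in each other line, with dashed lines at 22.9% and 9.05% over all chromosomes and black ticks after the GC and length correction. Chromosome 19 has the tallest upper bar (47.0%) and chromosome 8 the longest lower bar (22.9%).

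Neighbouring genes shared calls. Of the 2889 higher genes, 63.2% had a higher gene next to them, against 28.4% of the other genes, and among the 1140 lower genes 36.8% had a lower neighbour, against 14.2%. The 10 longest unbroken runs of higher genes all lay on chromosome 19. The longest held 22 genes from ZNF83 to MYADM, 19 of them ZNF genes, which encode zinc finger proteins, most of them on this chromosome with a KRAB repressor domain. Its median log2 differences were 0.687 against H3255, 1.68 against H820 and 3.54 against A549. Other runs held no ZNF gene, such as the 19 genes from SEMA6B to DUS3L, with medians of 0.895, 1.21 and 0.986. Of 214 tested ZNF genes on chromosome 19, 143 were higher (66.8%), against 52 of 214 on other chromosomes (24.3%) and 41.4% of the other genes of chromosome 19. ZNF genes of this chromosome are close relatives, and reads can be divided among them.

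Within chromosome 19 the direction switched. Windows of 50 consecutive tested genes were ranked by their share of calls and the extremes are given as a description, since their values chose them. From PRKCSH to NACC1, 45 of 50 genes were higher (90.0%) and 0 lower, with medians of 0.971, 1.47 and 1.79 against H3255, H820 and A549. In the window that starts at FCGBP, 32 of 50 were lower (64.0%) and 1 higher, with medians of -1.002, -0.70 and -1.50. In the C36 libraries the first window had 92.0% higher and the second 57.1% lower. In or near the lower block, genes chosen after their values were seen included EGLN2, an oxygen-sensing prolyl hydroxylase, at 6.1 ± 0.375 FPKM in H1975, 28.2 ± 0.8802 in H3255, 26.3 ± 0.6002 in H820 and 26.1 ± 0.811 in A549. The cytokine TGFB1 was at 9.53 ± 0.234 FPKM in H1975, 24.8 ± 0.589 in H3255, 20.1 ± 0.4395 in H820 and 20.1 ± 0.661 in A549. The kinase AKT2 was at 6.69 ± 0.0512 FPKM in H1975, 13.1 ± 0.332 in H3255, 133 ± 2.101 in H820 and 24.7 ± 0.608 in A549. ERF, a repressor inactivated by ERK, was at 6.77 ± 0.3404 FPKM in H1975, 18.4 ± 0.148 in H3255, 12.8 ± 0.141 in H820 and 57.9 ± 3.63 in A549. ZFP36, which destabilises cytokine mRNAs, was at 1.74 ± 0.0796 FPKM in H1975, 8.36 ± 0.284 in H3255, 9.08 ± 0.347 in H820 and 27.5 ± 1.84 in A549. The exception inside the block was CD79A, a B cell receptor subunit, higher at 4.01 ± 0.298 FPKM in H1975, 0.106 ± 0.0296 in H3255, 0.106 ± 0.09105 in H820 and 0.297 ± 0.0569 in A549. Further lower runs on chromosomes 19 and 8 were RABAC1 to CIC (8 genes), PRKD2 to NPAS1 (7 genes) and TRAPPC9 to PTP4A3 (8 genes).

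**Figure D4:**
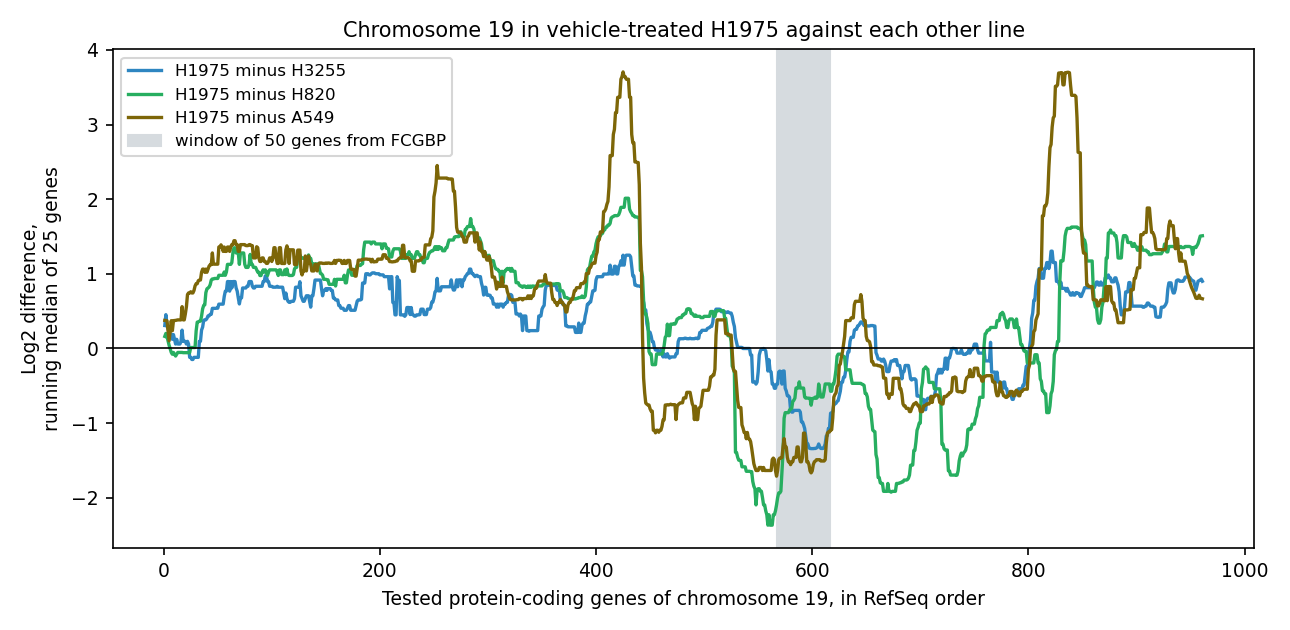
Running median over 25 tested protein-coding genes of the log2 difference H1975 minus each other line, along chromosome 19 in RefSeq order, with the window of 50 genes that starts at FCGBP shaded. All 3 lines of the plot lie above 0 over most of the earlier genes and below 0 in the shaded window, where the medians over the window are -1.002, -0.70 and -1.50.

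Libraries treated with the control aptamer C36 were not used to choose these genes, so the same fit was run on the 12 C36 libraries. Of the 3692 genes higher in vehicle, 3463 were called the same way (93.8%), and of the 1357 lower genes 1229 (90.6%), where 23.1% and 9.1% of all genes tested in C36 libraries were higher and lower. For the 2-fold sets the counts were 747 of 756 (98.8%) and 162 of 166 (97.6%), and 0 genes had the opposite call. The repeat concerns libraries, since the lines were the same.

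MinE07 was compared with C36 in H1975 to ask whether the genes that set the line apart differed between the EGFR aptamer and the control aptamer. Neither arm is a vehicle library. Over all genes, 2829 of 14183 were called (19.9%), 8.88% higher and 11.1% lower with MinE07. Of the genes specifically higher in H1975, 820 of 3679 tested were called (22.3%, 322 up and 498 down), and of those specifically lower 168 of 966 (17.4%, 76 up and 92 down), shares near that of all genes. In the 2-fold sets 203 of 751 higher genes (27%, 92 up and 111 down) and 19 of 70 lower genes were called (27.1%, 15 up and 4 down). The rest of the 166 lower genes did not reach a mean of 1 FPKM over the 9 H1975 libraries and were not tested. Without C36 replicate 2 the called specific genes numbered 620, and without MinE07 replicate 3 they numbered 654, against 988 with all libraries.

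The 3 specific genes of the MAP kinase list were lower with MinE07 than with C36. Each rise or fall given here is a difference between the aptamers and not one from vehicle. FOSL1 was at 74.5 ± 4.67 FPKM under MinE07 against 109 ± 4.99 under C36, a log2 change of -0.55 ± 0.047 (limma, adjusted p = 0.000122, n = 3 per arm here and below). IL11 was at 5.202 ± 0.0461 FPKM under MinE07 against 8.28 ± 0.208 under C36 (-0.62, limma adjusted p = 3.84e-05), and PHLDA1 fell to a lesser extent (-0.25 ± 0.029). TNFRSF6B was at 19.4 ± 0.804 FPKM under MinE07 against 34.5 ± 1.68 under C36, a change of -0.81 ± 0.045 (limma, adjusted p = 1.82e-05). TNFSF10, low in untreated H1975, was at 1.88 ± 0.343 FPKM under MinE07 against 0.852 ± 0.141 under C36 (0.81 ± 0.12, limma adjusted p = 0.00168). Its vehicle libraries, given above, lay between these means. TJP3 rose to 3.92 ± 0.123 FPKM under MinE07 against 2.001 ± 0.192 under C36 (0.82 ± 0.064, limma adjusted p = 7.85e-05). In each of these 6 genes the change was toward the level of the other lines, but they do not stand for the whole set. Of the called genes at least 2-fold higher in H1975, 111 fell and 92 rose. Of those at least 2-fold lower, 15 rose and 4 fell. LAMB1 moved the other way, to 1.44 ± 0.0369 FPKM under MinE07 against 2.11 ± 0.111 under C36 (-0.43, limma adjusted p = 0.000567), as did CD74, which rose from an already high level to 42.4 ± 0.472 FPKM under MinE07 against 32.8 ± 0.967 under C36 (0.36, limma adjusted p = 0.000118). COL1A2 rose by 0.38 and MMP13 by 0.35, while MMP14 fell by 0.14 and SCG2 by 0.35. NKX2-1 was at 22.4 ± 0.6095 FPKM under MinE07 against 17.2 ± 1.13 under C36 (0.37 ± 0.052, limma adjusted p = 0.00118), with the vehicle mean of 19.8 between them. Of the top 12 higher genes, the 11 other than TNFRSF6B did not pass the test, HSPB6 with 0.16 (limma, adjusted p = 0.0522) and DHRS2 with -0.07 (0.156). Of the top 12 lower genes LAMB1 alone reached the filter in H1975.

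**Figure D5:**
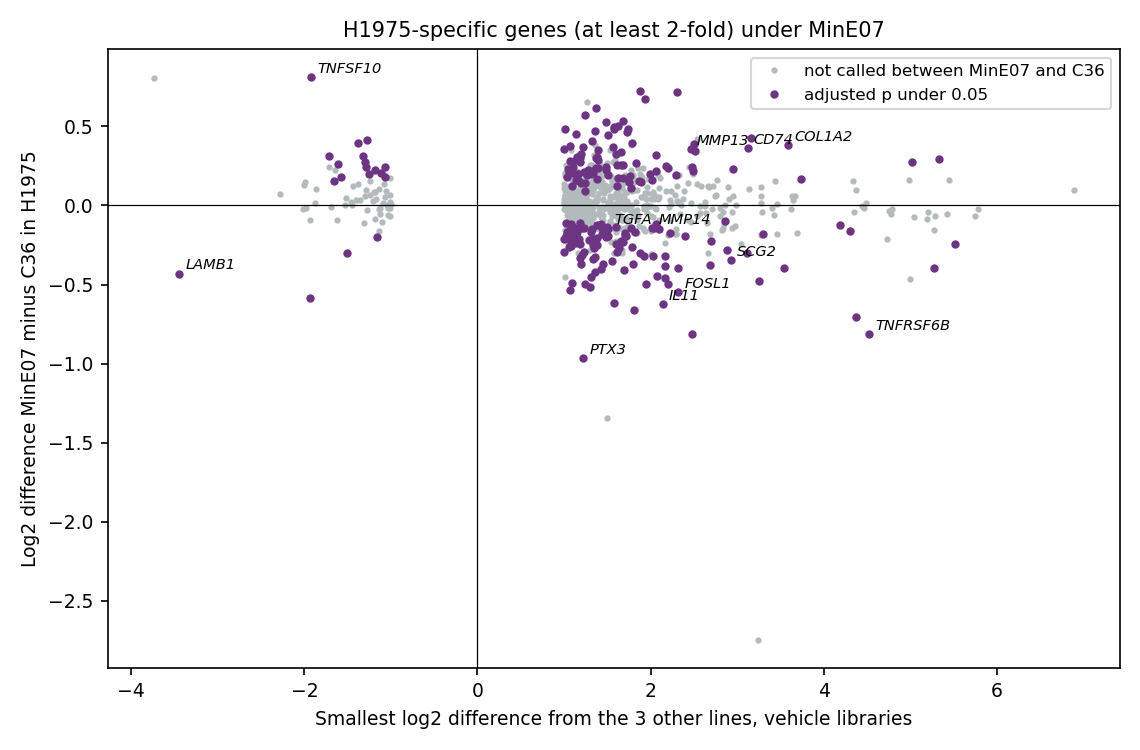
Log2 difference MinE07 minus C36 in H1975 (vertical) against the smallest log2 difference from the 3 other lines in vehicle libraries (horizontal) for genes at least 2-fold higher or lower in H1975, with purple points called between the aptamers and named genes labelled. TNFRSF6B (-0.81), FOSL1 (-0.55) and IL11 (-0.62) lie below 0 and TNFSF10 (0.81) above it.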

How the data were processed

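RNA was taken from 36 cultures, and the 12 vehicle libraries are the basis of the report. Per the labels, libraries were poly-A selected with a stranded kit and read as pairs of 100 bases, and per the series record the replicates were independent in a biological sense. The authors deposited 1 table of FPKM values per library. The submitters' processing notes name HISAT2, Cuffdiff and the builds GRCh38.p12 and hg38. The annotation is not given in the sources used here, nor is any use of strand in counting, so overlapping and antisense genes may share reads. The tables hold no read counts, so depth is known only relative to other libraries and no counting interval is given.

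Tables were joined by gene name. Of 68271 entries, 1874 without a gene name (at most 0.0028% of a library) and 31 with repeated names (at most 0.0025%) were left out, which left 66366 genes, 7486 of them numbered copies of a name. A gene with a mean of at least 1 FPKM in any line was tested as log2(FPKM + 0.5), with limma 3.58.1 under R 4.3.3 and statmod 1.5.0. The fit had 4 line means, an intensity trend and robust moderation, two-sided, with Benjamini-Hochberg adjustment per comparison. A gene was specific at an adjusted p under 0.05 in the same direction in all 3 comparisons. The code was tested on simulated data. The C36 libraries were fitted in the same way, and MinE07 against C36 in the 9 H1975 libraries with 3 group means. RefSeq (GRCh38.p14) gave symbols, gene types, gene order and promoters, 15275 of 16765 tested names matched, and none of its coordinates was applied to the deposited values. Other steps used Python 3.11.15, pandas 2.3.3, numpy 2.4.6 and matplotlib 3.10.9.

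Genes named were 11 fixed ones (EGFR, ERBB2, ERBB3, MET, NKX2-1, CDH1, VIM, CDKN2A, CDKN2B, MTAP and 1 more), the top 12 in each direction by the smallest of the 3 differences, without numbered copies, pseudogenes, non-coding names or genes that mix listed zeros with values of 1 FPKM or more within a line, and up to 4 called members per direction of each of 18 lists. Some named genes and 1 list are not reported here. The members and lists were chosen with earlier results of these data known. Alternatives were other pseudocounts, filters, scalings, moderation, libraries and lines, the replicate block, and a GC and length correction. Replicate numbers are shared between lines, but in 9 pairs of same-numbered libraries the deviations from line means correlated by -0.044 to 0.134, with 1 pair over 0.1, so the numbers were not taken to pair libraries.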

Additional observations from a re-analysis of the deposited data

How the results depend on the processing

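Leaving out any 1 of the 12 vehicle libraries gave 3549 to 3722 higher and 1297 to 1381 lower genes, and 745 to 760 and 161 to 166 at least 2-fold. A pseudocount of 0.1 raised the genes at least 2-fold lower to 300. Without a filter on low values there were 5933 higher genes, 20885 called against H3255, 20828 called against A549 and 594 specific genes called between MinE07 and C36 in H1975. A filter at a mean of 5 FPKM gave 2419 higher genes, 386 at least 2-fold, 9259 called against H3255 and 9119 against A549, as fewer genes were tested. Rescaling by medians of ratios gave 2168 lower genes and set MET at -0.16 and CDH1 at -0.15 against A549. Against H3255 and H820 only, the 2 lines in the same medium, there were 2725 lower genes, and 1225 and 421 at least 2-fold higher and lower. The GC and length correction, chosen after seeing the data, gave 2290 higher, 2280 lower and 413 at least 2-fold higher genes, with MET at -0.092 and CDH1 at -0.19 against A549. The same genes uncorrected gave 3173 higher and 1214 lower. The specific genes called between MinE07 and C36 ran from 620 to 1116 over libraries left out in turn. The replicate block, tried although the numbers share only a name, gave 3710 higher, 1359 lower, 755 and 166 at least 2-fold, and 865 called with MinE07, none past 1.5 times the reported count. Of 90 named specific genes, 80 kept their call in every setting run. The others were BST2, CDK4, CDKN1C, CHGB, CXCL8, HOXC4, PKP3, SERPINA1, XAGE1A and XAGE1B. Absolute depth is not known, so a value listed at 0 has no upper limit here.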

Other observations

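The genes below were chosen after their values were seen, from the at least 2-fold sets unless said otherwise, and are given as values. Beside the CT45A copies, 2 more genes known from the germ line were on in H1975. TDRD9, a helicase of the piRNA pathway that silences transposons, stood at 10.3, 11.6 and 11.5 FPKM in H1975, 0.0944, 0.0499 and 0.0492 in H3255, 0.0059, 0.0053 and 0.0101 in H820 and 0.0038, 0 and 0.0035 in A549. GPAT2, a testis protein also tied to piRNA, was at 7.01, 6.63 and 6.55 FPKM in H1975, 0.0708, 0.084 and 0.104 in H3255, 0.0491, 0.0316 and 0.0739 in H820 and 0.0456, 0.0621 and 0.0312 in A549. Neither gene reached 0.11 FPKM in any library of another line. Secreted and surface proteins included VGF, a neuropeptide precursor, at 55.3 ± 5.85 FPKM in H1975, 1.69 ± 0.0665 in H3255, 0.639 ± 0.214 in H820 and 2.06 ± 0.0685 in A549, the ligand WNT9A at 26.04 ± 0.438 FPKM in H1975, 0.853 ± 0.138 in H3255, 0.385 ± 0.00314 in H820 and 0.109 ± 0.0223 in A549, the vitamin B12 carrier TCN1 at 6.601 ± 0.378 FPKM in H1975, 0 ± 0 in H3255, 0.005301 ± 0.00918 in H820 and 0.0496 ± 0.0279 in A549 and the aminopeptidase ANPEP (CD13) at 45.3 ± 0.833 FPKM in H1975, 0.0183 ± 0.00846 in H3255, 2.01 ± 0.0614 in H820 and 0.5801 ± 0.0534 in A549. AIM2, which senses cytosolic DNA, was at 9.99, 9.52 and 9.47 FPKM in H1975, 0.0188, 0.0485 and 0.0199 in H3255, 0.399, 0.496 and 0.478 in H820 and 0.0251, 0.047 and 0.0237 in A549. RGS4, a brake on G protein signalling, was at 10.2 ± 0.348 FPKM in H1975, 0 ± 0 in H3255, 0.0186 ± 0.0103 in H820 and 0.00844 ± 0.00927 in A549, and the ion channel TRPV2 at 8.48 ± 0.4003 FPKM in H1975, 0.0187 ± 0.0324 in H3255, 0.269 ± 0.0484 in H820 and 0.0882 ± 0.0385 in A549. The long non-coding RNA UCA1, known from bladder cancer, was at 56.9, 55.04 and 60.9 FPKM in H1975, 0.0083, 0 and 0.0246 in H3255, 1.04, 0.654 and 1.17 in H820 and 0.0083, 0.572 and 0 in A549. Its level in H1975 stood clear of every other library, although 1 A549 library differed from the others of its line.

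Of the metallothioneins, small proteins that bind zinc and copper, MT1E, MT2A and MT1X were looked at. MT1E was at 194, 175 and 165 FPKM in H1975, 0, 0 and 0 in H3255, 41.3, 46.6 and 35.2 in H820 and 0, 0.166 and 0 in A549. MT2A, at 703 ± 37.8 FPKM in H1975, 76.2 ± 7.37 in H3255, 377 ± 33.7 in H820 and 197 ± 39.6 in A549, and MT1X, at 32.7 ± 2.73 FPKM in H1975, 8.59 ± 1.38 in H3255, 20.6 ± 2.95 in H820 and 7.96 ± 0.919 in A549, were also called higher than in each line but not by 2-fold against H820, and reads can be divided among these near-identical genes. On the lower side, STK24, a kinase of the same GCKIII group as STK26, was at 0.0897, 0.0855 and 0.0795 FPKM in H1975, 3.05, 2.82 and 3.08 in H3255, 4.51, 4.47 and 4.41 in H820 and 10.1, 9.02 and 9.55 in A549, also below every other library. STK25, the remaining member of that group, was not specific, at 21.2 ± 0.507 FPKM in H1975, 26.9 ± 0.233 in H3255, 37.5 ± 0.749 in H820 and 14.9 ± 0.608 in A549. BEX2, at 0.0337 ± 0.0155 FPKM in H1975, 4.63 ± 0.333 in H3255, 1.58 ± 0.0692 in H820 and 4.298 ± 0.2797 in A549, and BEX4, at 0.00469 ± 0.00813 FPKM in H1975, 2.64 ± 0.458 in H3255, 0.991 ± 0.0607 in H820 and 0.826 ± 0.169 in A549, were lower along with BEX3, and both lie in the same gene family of chromosome X. The keratin KRT4 of stratified epithelia was at 0.00837 ± 0.00825 FPKM in H1975, 10.1 ± 0.12 in H3255, 9.16 ± 0.575 in H820 and 2.99 ± 0.139 in A549, and CYP2S1, a cytochrome P450 of chromosome 19, at 0.994 ± 0.0629 FPKM in H1975, 10.04 ± 0.363 in H3255, 5.48 ± 0.583 in H820 and 50.8 ± 2.35 in A549. For each gene in these paragraphs other than STK25, the 3 H1975 libraries did not overlap the 9 others.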
